A study of Mus musculus with 4 samples.

Results

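The Bcl2 family decides, at the outer mitochondrial membrane, whether a cell enters apoptosis, and 10 of its genes were followed in cultured mouse female germline stem cells (FGSCs) with and without knockdown of *Nat10*. The genes were picked by symbol from the 53465 genes in the deposited expression table: *Bcl2*, *Bcl2l1*, *Mcl1* and *Bcl2a1b* on the anti-apoptotic side, the effectors *Bax* and *Bak1*, and the BH3-only genes *Bcl2l11*, *Bbc3*, *Pmaip1* and *Bid*. FGSCs are a proliferating cell line grown from mouse ovary, and *Nat10* encodes the enzyme that writes N4-acetylcytidine (ac4C) on RNA. FGSCs infected with a lentivirus for an shRNA against *Nat10* (shNAT10) were compared with FGSCs that received a negative control shRNA (shNC), and the methods describe drug selection of infected cells. Long RNA-seq was made of 2 libraries per group, 4 in all, numbered 1 and 2 in each group. The study calls them biological replicates, but neither it nor the labels say whether the libraries of a group came from separate cultures or infections, so the tests measure only the spread between these libraries.

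Anti-apoptotic members hold Bax and Bak1 in check by binding them and by trapping BH3-only proteins. BH3-only proteins are induced or activated by stress and either neutralise the anti-apoptotic members or activate Bax and Bak1 directly, after which the effectors form pores that release cytochrome c and start the caspase cascade. In the ovary the balance between Bcl2 and Bax is known for its part in setting how many germ cells survive.

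Expression is given as FPKM, the fragments of a gene scaled by its exon length, so levels can be compared between genes. They are also divided by a factor for each library, which followed median ratios rather than the total of fragments. Whole fragments could be recovered from the deposited values, numbering 14902437 and 13029105 for shNC against 11057922 and 13771492 for shNAT10. Loci related to rRNA, a list that also holds other abundant non-coding RNA, took 41.2% and 32.6% of these fragments in shNC and 21.4% and 23.2% in shNAT10. The list includes the lncRNAs *Gm42418* and *Gm26917*, which the study reports as reduced in shNAT10 by qPCR, and *Lars2*, a protein-coding gene. Why the share differed was not tested. As this share differed between the groups, the libraries were also scaled to an equal sum of FPKM or of fragments outside those loci (the equal-FPKM and equal-fragment scalings). The summed FPKM of all genes was 2.09e+06 and 1.53e+06 in shNC against 1.18e+06 and 1.20e+06 in shNAT10. Of this the list held 292359 and 225932 against 141732 and 149071 FPKM. Most of the difference in summed FPKM thus lay outside the list, and the equal-FPKM scaling acts on that part. Which entries carry it was not tested.

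*Nat10*, the targeted gene (ENSMUSG00000027185, GRCm38 chr2:103721256-103761270, minus strand), was at 7.79 and 5.42 FPKM in shNC against 2.95 and 3.04 FPKM in shNAT10. The groups did not overlap, and shNAT10 was the lower one, which fits the labels. Its log2 fold change was −1.09 (SE 0.21), or 0.47-fold, and limma called it lower, with a Benjamini-Hochberg adjusted p = 0.123. An exact two-sided permutation test of 2 against 2 libraries cannot go below p = 0.3333, the value it gave here. *Nat10* was no longer called without shNAT10-1 (log2 fold change −1.07) or without shNAT10-2 (−1.11), when 1 shNAT10 library is left. The call was also lost with the equal-FPKM scaling, at −0.55. Once the shift of the median of all genes under that scaling is taken off, *Nat10* lay at −1.06.

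The sequences that targeted *Nat10* are shown because the whole comparison rests on them. The supplement of the study lists 3 for this gene, and which of them was used for the sequenced cells is not given in the sources used here. Each of the 3 matched GENCODE M21 transcripts of *Nat10* in sense and of no other gene over its full length of 21 bases. Y24155 lies in coding exon 18 of the full-length transcript at chr2:103731978-103731998, Y24156 in coding exon 4 at chr2:103754169-103754189 and Y24157 in coding exon 14 at chr2:103734449-103734469, all on the minus strand of GRCm38.
Y24155: ttgctgttcacccagattatc
Y24156: agagtgggaccttgaacttaa
Y24157: gcagtggagaagtggcttaat

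The labelled cell type was checked against germline markers. Of 11 such genes, *Dazl*, *Pou5f1* and *Dppa3* were at 0 FPKM in all 4 libraries, and *Ddx4*, a defining germ cell RNA helicase, was at 0 except for 0.053 FPKM in shNAT10-1. Those defining markers were therefore at or near 0 in these libraries. The study itself shows RT-PCR of germline markers and immunofluorescence of DDX4 and OCT4 in its FGSCs, and the cells are called FGSCs here as in the labels. The summed level of the 11 genes was 34.5 and 44.0 FPKM in shNC against 42.4 and 50.2 FPKM in shNAT10, most of it from *Kit*, at 24.5 and 21.2 against 14.5 and 15.6 FPKM, and *Ifitm3*, at 9.29 and 22.2 against 27.1 and 33.6 FPKM. All 8 pan-leukocyte markers were detected, with summed levels of 512.7 and 570.3 FPKM in shNC against 406.4 and 429.1 FPKM in shNAT10. Their most abundant gene in shNC was *Cd53*, at 174 and 196 against 121 and 126 FPKM. In shNAT10 it was *Coro1a*, at 142 and 150 FPKM, against 137 and 164 FPKM in shNC. Limma called 5 of the 8 lower and 0 higher (against 7.83% and 8.41% of all genes, by the threshold given below, which also holds for the next lists), while *Ptprc* lay between 15.3 and 15.5 FPKM in the 4 libraries.

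Of 10 mast cell markers, *Fcer1a* and *Tpsb2* were at 0 in all 4 libraries and *Cpa3* led, with 245 and 262 FPKM in shNC against 272 and 267 FPKM in shNAT10. The mast cell list summed to 312.7, 323.1, 322.6 and 318.3 FPKM (both shNC libraries first), a sum carried by *Cpa3*. Of its 5 tested genes limma called *Ms4a2* higher (log2 fold change 2.12) and *Gata2* (−0.33) and *Kit* (−0.60) lower. Of 7 macrophage markers *C1qa* and *C1qb* were at 0, *Adgre1* led at 44.7 and 47.8 against 33.2 and 38.5 FPKM and was the only 1 of 4 tested that was called (lower), and the list summed to 51.0 and 54.2 FPKM in shNC against 41.3 and 45.3 FPKM in shNAT10. The 6 granulosa cell markers summed to between 0.11 and 0.49 FPKM, with *Foxl2* and *Fshr* at 0. *Inha* led in the mean over the 4 libraries, on 12 fragments in all, but in shNC *Amh* had the higher mean (0.10 against 0.057 FPKM). The 7 fibroblast markers summed to 54.1 and 47.2 FPKM in shNC against 65.1 and 55.4 FPKM in shNAT10, led by *Dcn*, with *Lum* at 0 in all 4 libraries, and of 6 tested *Col3a1* (log2 fold change 0.98), *Pdgfra* (0.83) and *Thy1* (0.76) were called higher and 0 lower. In bulk RNA, fewer cells of a type and less RNA per cell cannot be told apart, and the part of these markers in the results on the family was not tested.

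A gene was called where its fold change exceeded 1.2 at p of 0.05 or less before adjustment, a threshold under which limma called 1691 of 20116 tested genes higher (8.41%) and 1576 lower (7.83%) in shNAT10. Of the 10 family members, 9 passed the filter on low values. 1 of the 9 was called higher and 1 lower, against the 8.41% and 7.83% of all genes, so the share of called members was near the background. The groups did not overlap for 5 of the 9, against 48% of all tested genes. After Benjamini-Hochberg adjustment in limma 0 of the 9 members had a p under 0.05, against 0.437% of all genes, although 2 had one before adjustment, and in limma-voom on the recovered fragments 3 of the 9 did, against 7.88% of all genes. The median log2 fold change of the 9 was 0.012, and that of all genes tested was 0.0054, with 5 members above 0 and 4 below.

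The balance of calls over all genes moved with the scaling. The equal-FPKM scaling gave 4566 genes higher and 191 lower and put the median of all genes at 0.51 on the log2 scale, and the equal-fragment scaling gave 2426 higher and 998 lower with a median of 0.10. Medians of gene lists moved along, so that the equal-FPKM scaling turned those of the atypical relatives and of the regulators given further on from −0.31 and −0.19 to 0.24 and 0.35. The scaling factors are shared by all genes, so a sign that turned with these scalings is not read as a change of direction. *Bik* and *Bcl2l10*, both of very low FPKM, moved less than the median with the equal-FPKM scaling, from −0.31 to −0.22 and from −0.50 to −0.31.

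The order of the members by FPKM was the same in both shNC libraries: *Bax*, *Mcl1*, *Bbc3*, *Bid*, *Bak1*, *Bcl2l1*, *Bcl2*, *Pmaip1*, *Bcl2l11* and last *Bcl2a1b*. In both shNAT10 libraries *Bax* and *Mcl1* were again at the top, *Bak1* had rank 3 and *Pmaip1* stood above *Bcl2*. In shNAT10, *Bbc3* and *Bid* exchanged places between the libraries.

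**Figure D1:**
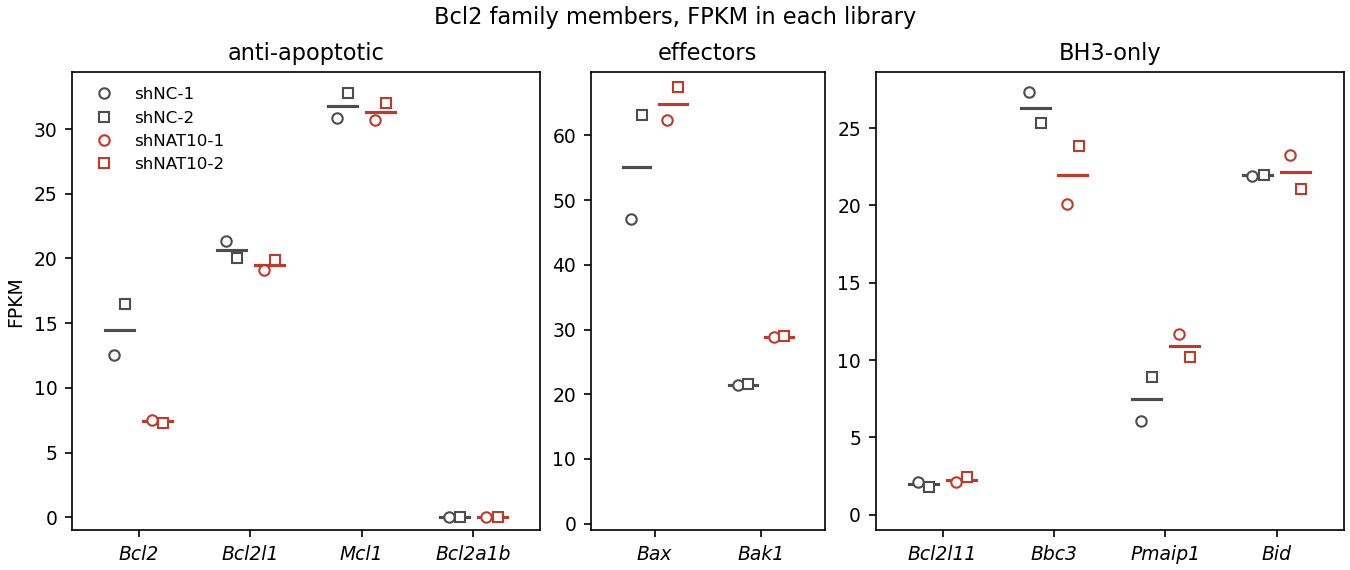
FPKM of the 10 Bcl2 family members (vertical axis, linear and different in each panel) in each library, in panels for anti-apoptotic members, effectors and BH3-only members. Circles and squares are libraries 1 and 2, grey is shNC, red is shNAT10 and the bars are group means. *Bcl2* lies at 12.5 and 16.5 FPKM in shNC and at 7.53 and 7.29 FPKM in shNAT10, *Bak1* at 21.4 and 21.5 against 28.8 and 29.0 FPKM.

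Among the anti-apoptotic members *Bcl2* was lower in shNAT10, while *Bcl2l1* and *Mcl1* were not called. *Bcl2*, the founding survival factor of the family (ENSMUSG00000057329, GRCm38 chr1:106538178-106714274, minus strand), stood at 12.5 FPKM in shNC-1, 16.5 FPKM in shNC-2, 7.53 FPKM in shNAT10-1 and 7.29 FPKM in shNAT10-2. The groups did not overlap, and the shNC libraries were further apart than the shNAT10 libraries. The group means were 14.5 ± 2.79 FPKM in shNC and 7.41 ± 0.17 FPKM in shNAT10 (SD, n = 2). These levels rest on 1347 and 1790 fragments in shNC and 865 and 1023 in shNAT10. The log2 fold change was −0.95 (SE 0.16, 95% confidence interval −1.37 to −0.53), or 0.52-fold. *Bcl2* met the call, but after Benjamini-Hochberg adjustment limma gave an adjusted p = 0.106. On the recovered fragments limma-voom gave an adjusted p = 2.81e-06 for *Bcl2* by Benjamini-Hochberg, and over the other alternatives the adjusted p ran from 0.0576 to 0.511.

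*Bcl2* was no longer called without shNAT10-1 (log2 fold change −0.97) or without shNAT10-2 (−0.92), and with the equal-FPKM scaling, which put it at −0.40, or −0.91 once the median shift of that scaling is taken off. An antisense gene, *D630008O14Rik*, lies on the opposite strand inside *Bcl2* and shares 558 exon bases with it, 6.09% of the 9157 exon bases of *Bcl2* and 27.1% of its own. It was lower too, at 6.05 and 9.14 FPKM in shNC against 3.37 and 3.55 FPKM in shNAT10, with a log2 fold change of −1.08 (SE 0.22, limma with Benjamini-Hochberg adjusted p = 0.14), and is named after its values were seen. The labels name a directional library kit, but whether the counting used the strand is not given in the sources used here, and the part of the shared bases in either value was not tested.

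*Bcl2l1*, which encodes Bcl-xL, stood at 21.3 and 20.0 FPKM in shNC against 19.1 and 19.8 FPKM in shNAT10. The groups did not overlap, but their means differed by less than the shNC libraries did. Its log2 fold change was −0.08 (SE 0.09, 95% confidence interval −0.32 to 0.15). *Mcl1*, a short-lived anti-apoptotic protein, was the most abundant anti-apoptotic member, at 30.8 and 32.8 FPKM in shNC against 30.7 and 32.0 FPKM in shNAT10. Here the groups overlapped, and the log2 fold change was −0.02 (SE 0.08, 95% confidence interval −0.24 to 0.20). With the median shift of the equal-FPKM and equal-fragment scalings taken off, *Bcl2l1* lay at −0.047 and −0.081 and *Mcl1* at 0.017 and −0.017, so both stayed near 0. *Bcl2a1b*, one of a cluster of nearly identical *Bcl2a1* copies, was at 0 FPKM in each library, where 3 fragments would have given 0.31 FPKM in shNC-1, 0.31 FPKM in shNC-2, 0.29 FPKM in shNAT10-1 and 0.24 FPKM in shNAT10-2. *Bcl2a1b* shares 401 of its 817 exon bases with *Gm29094* and *Bax* shares 192 (12.2%) with *Gm45808*, both on the same strand and at 0 FPKM in each library. How reads that match several genes or copies were counted is not given in the sources used here, so the value of *Bcl2a1b* is a listed 0, and it was not tested.

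The effectors lay higher in shNAT10 in their group means, with *Bak1* called and *Bax* not. *Bak1* (ENSMUSG00000057789, GRCm38 chr17:27019810-27029009, minus strand), one of the pore-forming effectors, stood at 21.4 FPKM in shNC-1, 21.5 FPKM in shNC-2, 28.8 FPKM in shNAT10-1 and 29.0 FPKM in shNAT10-2. Within each group the libraries almost coincided, and the groups did not overlap. The group means were 21.5 ± 0.087 FPKM in shNC and 28.9 ± 0.12 FPKM in shNAT10 (SD, n = 2), on 605 and 615 fragments in shNC and 871 and 1070 in shNAT10. The log2 fold change was 0.43 (SE 0.08, 95% confidence interval 0.22 to 0.64), or 1.35-fold. Limma called *Bak1* higher with a Benjamini-Hochberg adjusted p = 0.121, and limma-voom gave an adjusted p = 0.0276, with 0.0276 to 0.416 as the range of adjusted p over all alternatives. *Ggnbp1*, on the opposite strand, shares 437 exon bases with *Bak1* (18.2% of the exon bases of *Bak1*), and stood at 2.62 and 2.64 FPKM in shNC against 3.58 and 3.40 FPKM in shNAT10. It was called higher as well, with a log2 fold change of 0.39 (SE 0.13), near that of *Bak1*, so that the question of strand holds here too.

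*Bax*, the other effector and the most abundant member, stood at 47.2 FPKM in shNC-1, 63.2 FPKM in shNC-2, 62.4 FPKM in shNAT10-1 and 67.5 FPKM in shNAT10-2. The shNC-2 library lay between the shNAT10 libraries and shNC-1 lay below all others. The log2 fold change was 0.25 (SE 0.16, 95% confidence interval −0.18 to 0.68), with a Benjamini-Hochberg adjusted p = 0.528 in limma. Without shNC-2 it was 0.46 and called higher, and without shNC-1 it was 0.038. The size of the difference in *Bax* thus depended on which shNC library was used, and it did not hold up against the spread between them.

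None of the 4 BH3-only members was called, and *Pmaip1* came closest. *Pmaip1*, which encodes Noxa, a BH3-only protein that binds Mcl1 and is transcribed under p53, stood at 6.08 FPKM in shNC-1, 8.91 FPKM in shNC-2, 11.7 FPKM in shNAT10-1 and 10.2 FPKM in shNAT10-2. The groups did not overlap, and the shNC libraries lay about as far apart on the log2 scale as the group means. The log2 fold change was 0.56 (SE 0.21, 95% confidence interval −0.0019 to 1.12), with a Benjamini-Hochberg adjusted p = 0.304 in limma. With limma-voom, on 195 and 289 against 401 and 426 fragments, the Benjamini-Hochberg adjusted p was 0.0384, and over the other alternatives it ran from 0.161 to 0.705. *Pmaip1* was called higher with limma-voom, with a filter at a mean FPKM of 1, with quantile normalization (0.58), with the equal-FPKM (1.11) and equal-fragment (0.66) scalings and without shNC-2 (0.83), while without shNC-1 its log2 fold change was 0.29 and not called.

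*Bbc3*, which encodes Puma and is another p53 target, was the most abundant BH3-only member in both shNC libraries, at 27.3 and 25.3 FPKM, and was at 20.1 and 23.8 FPKM in shNAT10. The groups did not overlap, and the log2 fold change was −0.26 (SE 0.12, 95% confidence interval −0.58 to 0.05), without a call. The equal-FPKM scaling put it at 0.29, or −0.23 with the median shift taken off. *Bcl2l11*, which encodes Bim, an activator BH3-only protein, was the least abundant tested member. It stood at 2.14 and 1.78 FPKM in shNC against 2.11 and 2.43 FPKM in shNAT10, with overlapping groups and a log2 fold change of 0.20 (SE 0.18), and was called higher only with the equal-FPKM scaling (0.73, or 0.22 with that shift taken off). *Bid*, the link from death receptors to mitochondria once caspases cut it, stood at 21.9 and 22.0 FPKM in shNC against 23.3 and 21.1 FPKM in shNAT10. These values overlapped, and the log2 fold change of *Bid* was 0.012 (SE 0.09, 95% confidence interval −0.23 to 0.26). *Bid* shares 628 exon bases with *Bcl2l13* on the opposite strand, which stood at 7.95 and 7.91 FPKM in shNC against 8.33 and 7.99 FPKM in shNAT10.

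**Figure D2:**
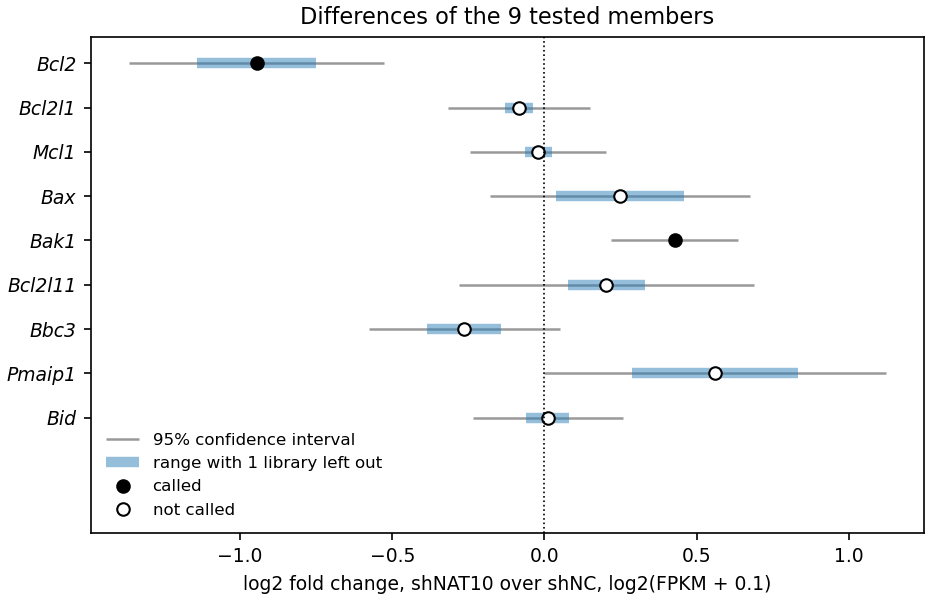
Log2 fold change of shNAT10 over shNC (horizontal axis, on the log2(FPKM + 0.1) scale) for the 9 tested members, with thin lines for the 95% confidence interval of limma and thick bars for the range with 1 library left out. Filled points are called, *Bcl2* at −0.95 and *Bak1* at 0.43, and open points are not, where *Bcl2l1*, *Mcl1* and *Bbc3* are above 0 with the equal-FPKM scaling, which lifts the median of all genes by 0.51.

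Ratios of FPKM within a library do not depend on the scaling between libraries and are given as a description. The *Bcl2* to *Bax* ratio was 0.27 and 0.26 in shNC and 0.12 and 0.11 in shNAT10. In log2 it lay at −1.91 and −1.94 in shNC and −3.05 and −3.21 in shNAT10, so the mean difference between groups was −1.20 and the libraries of a group stood close together. With 1 library left out that difference ran from −1.28 to −1.12. For *Bcl2l1* over *Bax* the log2 ratios were −1.15 and −1.66 in shNC and −1.71 and −1.77 in shNAT10, a difference of −0.33 that was no larger than the SD of the shNC libraries (0.36). *Mcl1* over *Bax* stood at −0.61 and −0.95 in shNC and −1.02 and −1.08 in shNAT10, a difference of −0.27 beside an SD of 0.24 in shNC.

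Against the BH3-only genes, *Bcl2* exceeded *Bcl2l11* 5.85 and 9.23 times in shNC and 3.56 and 3.0 times in shNAT10. The mean log2 difference of that ratio was −1.17, and its SD was 0.47 in shNC. *Mcl1* over *Bcl2l11* overlapped between the groups, with log2 ratios of 3.85 and 4.20 in shNC and 3.86 and 3.72 in shNAT10. *Mcl1* was 5.07 and 3.67 times *Pmaip1* in shNC and 2.63 and 3.14 times in shNAT10, a log2 difference of −0.59. The groups of this ratio did not overlap, and the shNC libraries were further apart (SD 0.33 in log2) than the shNAT10 libraries (SD 0.18). *Bcl2* was 0.59 and 0.82 times *Bcl2l1* in shNC and 0.39 and 0.37 times in shNAT10.

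**Figure D3:**
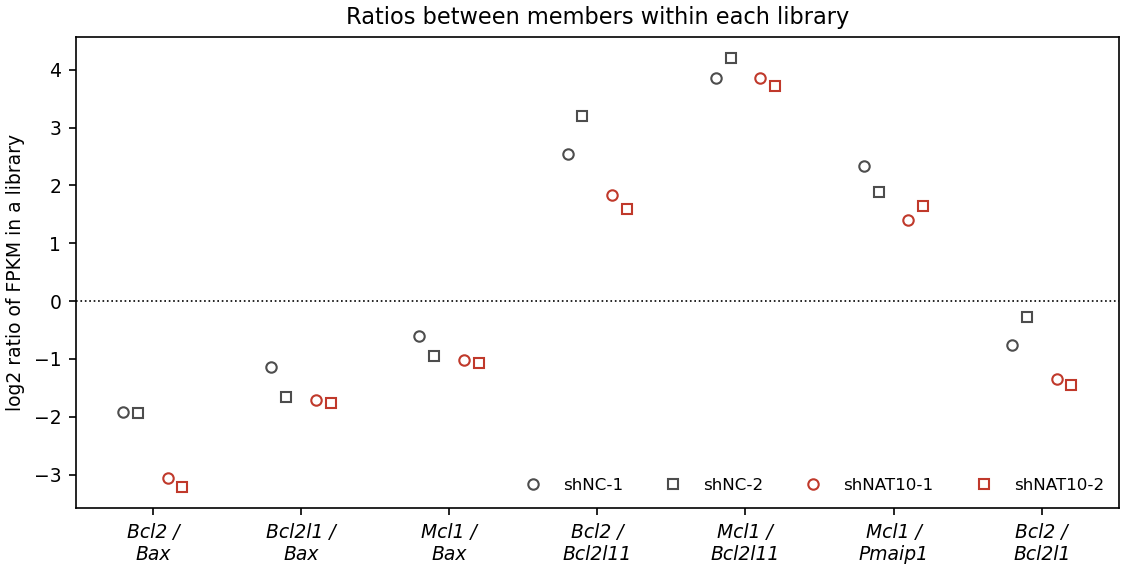
Log2 ratios of FPKM between pairs of members within each library (vertical axis), with grey for shNC and red for shNAT10, circles for library 1 and squares for library 2. *Bcl2* over *Bax* lies at −1.91 and −1.94 in shNC and at −3.05 and −3.21 in shNAT10, while *Mcl1* over *Bcl2l11* overlaps between the groups.

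The makeup of each class can be read as shares of summed FPKM. *Bcl2* made up 19.4% and 23.8% of the anti-apoptotic members in shNC and 13.1% and 12.3% in shNAT10, and *Mcl1* 47.7% and 47.3% against 53.5% and 54.1%. *Bak1* made up 31.2% and 25.4% of the effectors in shNC and 31.6% and 30.1% in shNAT10, so its share overlapped although its level did not. *Pmaip1* made up 10.6% and 15.4% of the BH3-only members in shNC and 20.4% and 17.7% in shNAT10, and *Bbc3* 47.6% and 43.6% against 35.2% and 41.4%. Over all members, the anti-apoptotic genes held 33.9% and 32.7% of the summed FPKM in shNC and 27.9% and 27.7% in shNAT10. The effectors held 35.9% and 40.0% against 44.3% and 45.3%, and the BH3-only genes 30.1% and 27.4% against 27.8% and 27.0%.

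Other genes of the family were mostly low. Among 5 further anti-apoptotic genes *Bcl2l2*, which encodes Bcl-w, was at 1.58 and 1.23 FPKM in shNC against 1.48 and 1.65 FPKM in shNAT10, *Bcl2l10* was at most at 0.21 FPKM, and *Bcl2a1a*, *Bcl2a1c* and *Bcl2a1d* were at or near 0. *Bok*, an effector-like gene, stood at 0.60 and 0.27 FPKM in shNC against 0.52 and 1.21 FPKM in shNAT10, on 65 fragments in all. Of 4 further BH3-only genes, *Bad* was at 11.7 and 14.1 FPKM in shNC against 14.6 and 14.3 FPKM in shNAT10, *Bmf* between 0.42 and 0.83 FPKM, *Bik* at most at 0.27 FPKM and *Hrk* at 0 in all libraries. Of these 10 genes 6 were tested and 0 were called in limma, against 8.41% higher and 7.83% lower of all genes. Before adjustment 0 had a p under 0.05 in limma, and limma-voom gave 0 of them an adjusted p under 0.05, against 7.88% of all genes. *Bad* was called higher without shNC-2 (0.31) but was at 0.033 without shNC-1, and *Bcl2l2* (0.67) and *Bok* (1.28) were called higher with the equal-FPKM scaling, under its shift of all genes.

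Among 7 atypical relatives 6 were tested, with a median log2 fold change of −0.31, and 1 was called, lower, against 7.83% of all genes. *Bnip3*, a mitophagy receptor induced by hypoxia, was lower in shNAT10, at 101 and 158 FPKM in shNC against 57.1 and 62.3 FPKM in shNAT10. This gave a log2 fold change of −1.08 (SE 0.23, Benjamini-Hochberg adjusted p = 0.142 in limma), and the call was lost without shNAT10-1 (−1.02), without shNAT10-2 (−1.15) and with the equal-FPKM scaling (−0.53). Its relative *Bnip3l* stood at 36.9 and 50.03 FPKM in shNC against 33.3 and 33.5 FPKM in shNAT10, and its log2 fold change of −0.36 was called with limma-voom and without shNC-1 (−0.58), was −0.14 without shNC-2 and turned to 0.19 with the equal-FPKM scaling. *Becn1*, which encodes an autophagy protein that binds Bcl2, was at 14.4 and 14.1 FPKM in shNC against 11.6 and 12.2 FPKM in shNAT10, with a log2 fold change of −0.26 that missed the fold of 1.2, was called without shNAT10-2 (−0.29) and turned to 0.29 with that scaling. *Bcl2l12* and *Bcl2l13* had log2 fold changes of 0.0035 and 0.04, *Bcl2l15* rested on 27 fragments (−0.93, called only without the trend of limma and without shNAT10-1, at −1.19) and *Bcl2l14* on 7, without a test.

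Downstream of the family, calls were again set against the shares of all genes, 8.41% higher and 7.83% lower. Of 6 genes for proteins that mitochondria release and for the apoptosome 0 were called, with a median log2 fold change of 0.067, and *Cycs*, which encodes cytochrome c, was the most abundant at 92.5 and 97.0 FPKM in shNC against 105 and 96.9 FPKM in shNAT10. Of 9 caspases and caspase substrates 0 were called as well, with a median log2 fold change of 0.009 that ran from −0.039 to 0.18 with 1 library left out. In these 2 lists limma gave a p under 0.05 before adjustment to 1 gene, *Aifm1*, named after its values were seen. Its log2 fold change of 0.25 missed the fold of 1.2. Limma-voom gave 0 genes of the 2 lists an adjusted p under 0.05, against 7.88% of all genes. Of 5 inhibitors of apoptosis 1 was called, against 8.41% of all genes that were higher: *Xiap*, which blocks caspases directly, was higher at 6.27 and 7.45 FPKM in shNC against 9.20 and 8.78 FPKM in shNAT10 (log2 fold change 0.39, SE 0.13), and *Birc2*, the most abundant, stood between 9.30 and 9.95 FPKM, with a median of −0.012 over the list (−0.029 to 0.039 with 1 library left out). The *Xiap* call was lost without shNAT10-1 (0.36), without shNAT10-2 (0.42), without shNC-1 (0.27) and without the trend of limma.

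Upstream, at the death receptors, 1 of 8 tested genes was called, higher, against 8.41% of all genes. *Fas*, the receptor for Fas ligand, was higher, at 1.75 and 1.82 FPKM in shNC against 3.01 and 2.57 FPKM in shNAT10 (log2 fold change 0.61, SE 0.17), on 246 fragments in all. This call was lost without shNAT10-1 (0.50), without shNC-1 (0.58) and without shNC-2 (0.64). *Tradd*, an adaptor, was the most abundant gene of the list at 14.5 and 16.2 against 13.0 and 15.0 FPKM, and the median of the list was 0.20, but −0.097 without shNAT10-2 and 0.086 without shNC-2. Of 4 genes for outer membrane proteins 0 were called in limma, against 8.41% higher and 7.83% lower of all genes. Before adjustment 0 had a p under 0.05 in limma, and limma-voom gave 0 an adjusted p under 0.05, against 7.88% of all genes. The median of these 4 genes was 0.092 and turned to −0.11 without shNC-1. *Vdac3*, a channel, was the most abundant of them at 25.3 and 30.0 against 24.9 and 24.5 FPKM, and was called lower without shNC-1 (−0.28).

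Of 18 genes that control the members' transcription or protein turnover 17 were tested, 5 were called lower and 1 higher, against 7.83% and 8.41% of all genes, with a median log2 fold change of −0.19. *Ddit3*, the stress factor CHOP that is known to repress *Bcl2*, was lower, at 39.5 and 48.4 FPKM in shNC against 16.9 and 17.6 FPKM in shNAT10 (log2 fold change −1.34, SE 0.13), with a Benjamini-Hochberg adjusted p = 0.0489 in limma that stayed under 0.05 in 4 of 15 alternatives and reached 0.451. *Atf4*, its upstream activator and the most abundant gene of the list, was at 221 and 201 FPKM against 144 and 130 FPKM (−0.62, SE 0.10, Benjamini-Hochberg adjusted p = 0.103 in limma). *Stat5a* (log2 fold change −0.55) and *Stat5b* (−0.36), cytokine-driven activators of *Bcl2l1*, and *Mitf* (−0.39), an activator of *Bcl2* in melanocytes, were lower, and *E2f1* was higher (0.36). With the equal-FPKM scaling *Atf4* (−0.071) and *Stat5a* (−0.0091) lost their calls, and *Stat5b* (0.19) and *Mitf* (0.16) lost theirs and lay above 0, under the shift of all genes. *Mitf* also lost its call without shNAT10-2 (−0.29), without shNC-1 (−0.34) and without shNC-2 (−0.43), and *E2f1* lost its call without shNAT10-1 (0.37) and without shNAT10-2 (0.35). Without the trend of limma *Stat5b*, *Mitf* and *E2f1* were not called, nor were *Stat5b* and *Mitf* with the equal-fragment scaling.

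Among p53 targets outside the family, more genes were called higher than lower. *Trp53* itself, named after its values were seen, stood at 10.3 and 12.6 FPKM in shNC against 12.3 and 12.3 FPKM in shNAT10, and was not called. Of 19 targets 11 were called higher and 2 lower, against 8.41% and 7.83% of all genes, and the median log2 fold change was 0.40, against 0.0054 over all genes tested. *Perp*, a membrane protein in p53-dependent death, stood at 50.7 and 53.7 FPKM in shNC against 103 and 104 FPKM in shNAT10 (log2 fold change 0.99, SE 0.08, limma with Benjamini-Hochberg adjusted p = 0.0443, under 0.05 in 5 of 15 alternatives and at most 0.256). *Eda2r*, a member of the TNF receptor family, was at 3.48 and 3.22 against 7.11 and 8.07 FPKM (1.16, SE 0.13), and *Btg2*, which slows proliferation, at 2.42 and 2.06 against 5.0 and 4.47 FPKM (1.05, SE 0.16). *Phlda3*, an inhibitor of Akt, was higher by a log2 fold change of 0.69 (SE 0.08). *Ccng1*, the most abundant of the list, was at 110 and 99.3 against 175 and 152 FPKM (0.64, SE 0.11), with its call lost without shNC-2 (0.56), and *Zmat3* (0.69, SE 0.19) lost its call with any 1 of the 4 libraries left out, at 0.56 to 0.81. Within the family the known p53 targets *Pmaip1*, *Bax* and *Bbc3* had log2 fold changes of 0.56, 0.25 and −0.26, none of them called.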

How the data were processed

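Long RNA-seq of 2 shNC and 2 shNAT10 libraries was grouped by sample titles. The authors trimmed reads with cutadapt, aligned them to mm10 with HISAT2 and compared groups with DESeq2, and deposited FPKM per gene. Their table of the comparison (fold changes and p-values) was not used. The paper describes rRNA-depleted libraries and the labels an mRNA preparation with a directional kit. The counter and annotation are not given in the sources used here. Deposited FPKM already carried a median-ratio scaling. From them log2(FPKM + 0.1) was tested with limma 3.58.1 (trend, two-sided) in R 4.3.3 wherever the mean FPKM reached 0.1, so that fold changes of low genes are understated. Fragments were recovered with GENCODE M21 exon lengths, with 96.0% to 96.6% of the values under 50 fragments within 0.02 of a whole number. Floors of 3 fragments cover counting error only. Python 3.11.15, numpy 2.4.6, pandas 2.3.3, scipy 1.17.1 and matplotlib 3.10.9 were used for the rest, and the fits were tested on simulated data.

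Members and lists were chosen with earlier results of these data known. Named genes are the members, *Nat10*, the other family genes and, in each other list, the called genes (at most 6, by size of change) and the most abundant gene, besides the markers, genes that overlap members and 2 genes named after their values were seen (*Aifm1* and *Trp53*), except 1 gene that is not reported here. Alternatives were pseudocounts of 1 and 0.01, no filter, a filter at a mean FPKM of 1, rescaling by median ratios, the equal-FPKM scaling, quantile normalization, no trend, limma-voom, a block for the replicate number, leaving out each library and, chosen after seeing the data, the equal-fragment scaling.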

Additional observations from a re-analysis of the deposited data

How the results depend on the processing

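*Bak1* kept its call in all 15 alternatives and *Bcl2* in 12. Rescaling by median ratios, 1 of the 15, could not change a call, because the deposited FPKM already carried that scaling. It repeats the main fit in each count out of 15. With the equal-FPKM scaling 4566 genes were higher and 191 lower, and 3 members were called higher (*Bak1*, *Bcl2l11* and *Pmaip1*) and 0 lower. *Nat10* lost its call at a log2 fold change of −0.55, or −1.06 with the median shift of that scaling taken off. Of the genes named by rule, the log2 fold changes of *Bcl2l1* (0.47), *Mcl1* (0.53), *Bbc3* (0.29), *Bnip3l* (0.19), *Becn1* (0.29), *Birc2* (0.54), *Tradd* (0.42), *Vdac3* (0.40), *Mitf* (0.16) and *Stat5b* (0.19) turned positive, under the shift of all genes that this scaling brings. With the equal-fragment scaling, chosen after seeing the data, 998 genes were lower, 2 members were called higher, and *Bcl2l1* (0.020), *Mcl1* (0.084) and *Birc2* (0.091) turned positive. With quantile normalization *Mcl1* (0.015) and *Birc2* (0.0047) turned positive and *Bcl2l12* negative (−0.0085). 2 members were called higher with limma-voom, with a filter at a mean FPKM of 1 and with quantile normalization, in each case *Bak1* and *Pmaip1*. The cause was not tested.

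Benjamini-Hochberg adjusted p under 0.05 was reached by 88 genes in limma, by 1582 with limma-voom, by 296 with that filter, by 151 with quantile normalization, and by 0 without the trend, without a filter, with either other pseudocount or with the replicate block, although in these 5 fits 2751 to 3656 genes had an unadjusted p under 0.05. With the replicate number as a block, 1587 genes were higher and 1527 lower, with *Bak1* and *Bcl2* called. Taken over all these genes, libraries of the same number did not deviate together (correlation −0.0017 over 12138 genes, which are not independent replicates). A correlation across genes cannot tell whether such libraries shared a culture, infection or batch, which the sources used here do not give.

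With 1 library left out, the lone library of a group being assumed to vary like the others, 1108 to 1734 genes were higher, 899 to 1659 lower and 0 passed adjustment in limma, 1 to 3 members were called higher and 0 to 1 lower, and *Nat10* ran from −1.35 to −0.83. Markers apart, log2 fold changes that changed sign ran from −0.063 to 0.024 for *Mcl1*, −0.059 to 0.082 for *Bid*, −0.016 to 0.33 for *Bcl2l2*, −1.19 to 0.19 for *Bcl2l10*, −1.25 to 0.63 for *Bik*, −0.19 to 0.62 for *Bmf*, −0.091 to 0.098 for *Bcl2l12*, −0.038 to 0.25 for *Trp53* and −0.060 to 0.037 for *Birc2*. Of the 15 called genes named from the lists other than members and markers, 8 kept their call in all 4 of these fits. The values of *Bcl2l10* and *Bik* rest on few fragments, 7 and 8 in all. Those of the *Bcl2a1* copies are at or near 0, and the part of depth or of reads that match several copies was not tested.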
